A study of Danio rerio with 9 samples.

Results

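The baseline described here is the transcriptome of the liver of wild-type zebrafish larvae that received vehicle and no drug. It rests on the 3 vehicle libraries of a series of 9, chosen by their treatment label. Genes were ranked by their mean over these 3 libraries in CPM, a gene's reads with each library scaled to the same total. The series concerns a system for partial cell ablation and lineage tracing. Its other libraries, 3 from larvae in 1 mM metronidazole and 3 from larvae in 10 mM metronidazole, serve here to show which features of the baseline held under the drug. Metronidazole is a prodrug that nitroreductase makes toxic inside transgenic cells. All larvae were labelled wild-type, were raised under standard conditions and were treated for 24 h, and poly A RNA was taken from livers dissected under the microscope. The labels do not give the strain, age, clutch or number of larvae behind a library.

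The liver is the main source of the proteins of blood plasma. Hepatocytes secrete the apolipoproteins that carry lipid, the transport proteins for iron, copper, retinol and vitamin D, most complement and clotting proteins, and the protease inhibitors that restrain them. The same cells buffer blood sugar, break down amino acids, make bile and detoxify foreign compounds. Bile duct cells, endothelium, stellate cells and blood cells make up the rest of the organ. Many zebrafish genes exist as duplicate copies, called paralogs here, from an early whole-genome duplication in the teleost lineage and from later tandem duplication, so that a human gene often has several fish counterparts.

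The 3 vehicle libraries held 37.2, 38.3 and 39.3 M counts, and over all 9 libraries totals ran from 30 to 41.3 M. The vehicle libraries correlated with each other at r = 0.9872 to 0.9889 across genes on the log2 scale, a description over genes that are not independent replicates. They differed by more than sampling noise, with a chi-square per gene of 18.3 to 29.2, so none is a second deposit of another. At 1 mM, replicate 3 stood apart from the other libraries of its group, with a chi-square per gene of 111 and 169 against them, while all other pairs within a group lay between 18.3 and 57.0. By the column names, 10 mM replicate 3 was read on another sequencing lane than the other libraries. Of the 32520 genes in the table, 12168 had at least 1 CPM in each vehicle library and together held 99.67% of the counts, and 9885 had no count in any of them. The table holds reads per gene with no transcript length, and a long transcript yields more reads than a short one. Where levels of different genes are set in order below, the order is therefore one of reads, not of molecules. The level of one gene can be compared across libraries without lengths. A gene's share of its family's reads, and which member leads, do depend on them, most of all where 2 members are close.

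Few genes supplied most of the RNA read from the vehicle liver. The 8 most abundant genes were enough for 25% of all counts, 61 genes for 50%, 364 for 75% and 1944 for 90%. The 10 most abundant held 27.04%, 27.83% and 27.59% of the counts of the 3 libraries, a mean of 27.49 ± 0.406% (SD, n = 3). The 100 most abundant held 57.37 ± 0.230% (SD, n = 3). Genes at 1000 CPM or more numbered 133 and held 61.37% of the counts. The 7528 genes between 1 and 10 CPM held 3.128%.

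The most abundant gene was apoa1b (ENSDARG00000101324), which encodes apolipoprotein A-I, the main protein of high-density lipoprotein. It had 57149, 62373 and 61259 CPM in the 3 vehicle libraries, or 6.03 ± 0.275% of all counts (SD, n = 3). The second was fetub (ENSDARG00000053973), a secreted protease inhibitor of the fetuin family, at 41319, 46261 and 45899 CPM. The third was the iron carrier transferrin, tfa (ENSDARG00000016771), at 36845, 34470 and 34041 CPM. These 3 genes held the same 3 ranks in every vehicle library, and their ranges did not overlap.

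Next came apoa2, another apolipoprotein of high-density lipoprotein, at 31537, 30786 and 28687 CPM. The gene apobb.1, one of the copies of apolipoprotein B, the scaffold of the very low-density lipoprotein particle, had 24379, 27311 and 24752 CPM. Thus 4 of the first 5 genes encode secreted plasma proteins of lipid or iron transport, with fetub the other of the 5. The mitochondrial carrier ucp1, known in mammals as the heat-producing uncoupling protein of brown fat, had 20735, 21242 and 21905 CPM and ranked seventh. Cytochrome c oxidase subunit 1, mt-co1, which is encoded in the mitochondrial genome, had 13255, 13090 and 14630 CPM. The complement gene c3a.1 had 12129, 9596 and 9942 CPM, and fabp10a, the liver fatty acid binding protein whose promoter is a common driver of hepatocyte transgenes in zebrafish, had 10288, 9033 and 11356 CPM.

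**Figure D1:**
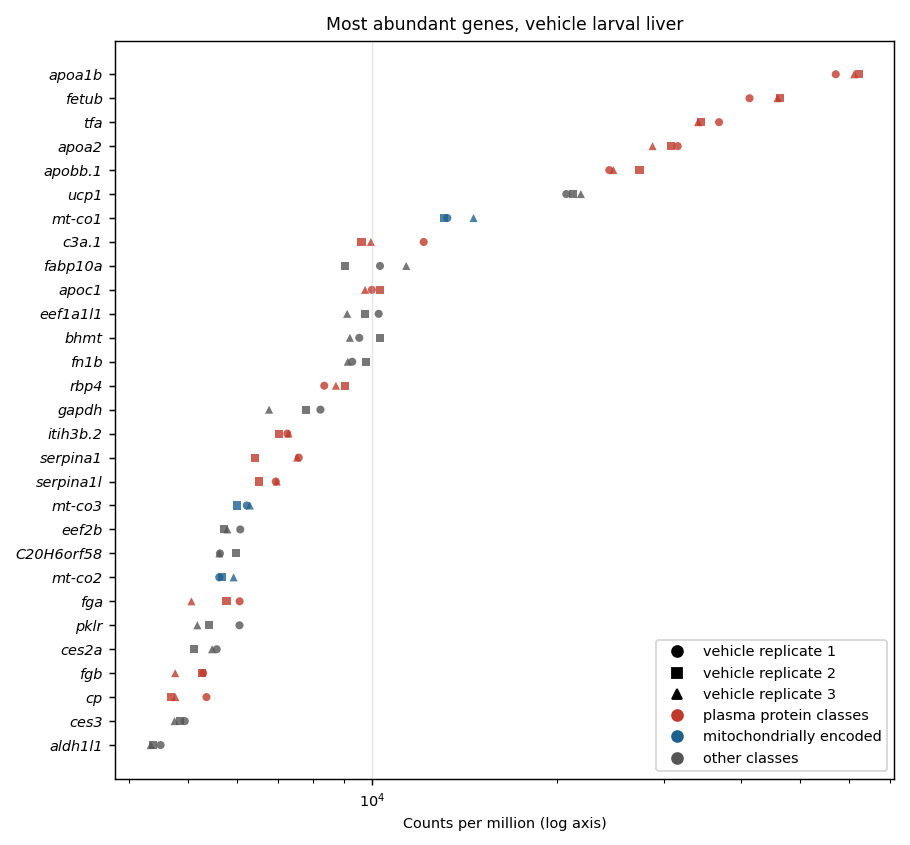
Genes among the 30 most abundant of the vehicle liver, 29 of them drawn, with the gene on the vertical axis and the level in CPM on a logarithmic horizontal axis. Points are the 3 vehicle libraries, red for plasma proteins, blue for mitochondrially encoded genes and grey for others, and the gene apoa1b, with 57149 to 62373 CPM, stands at the top.

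Among the 30 most abundant genes, 14 encode plasma proteins, and among the first 100, 37 do. Beyond those already named, the first 30 held the apolipoprotein apoc1, the retinol carrier rbp4, the antitrypsin-like inhibitors serpina1 and serpina1l, the hyaluronan-linked inhibitor itih3b.2, the fibrinogen chains fga and fgb and the copper protein ceruloplasmin, cp. They also held 2 genes of translation elongation, eef1a1l1 and eef2b, the glycolytic genes gapdh and pklr, the mitochondrial mt-co2 and mt-co3, the carboxylesterases ces2a and ces3, fibronectin fn1b, the betaine methyltransferase bhmt, the folate enzyme aldh1l1 and C20H6orf58. The lowest of the 30, aldh1l1, had 4507, 4377 and 4343 CPM.

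Plasma protein genes as a whole held 34.91%, 35.08% and 34.26% of the counts in the 3 vehicle libraries. They numbered 218, of which 170 had a vehicle mean of 1 CPM or more. Apolipoproteins were the largest class with 13.79 ± 0.438% (SD, n = 3), and apoa1b alone was 43.7% of it. Behind apoa1b, apoa2 and apobb.1 stood apoc1 with 9979, 10291 and 9728 CPM, a regulator of lipoprotein metabolism, and a further apolipoprotein B copy, APOB, with 3276, 3538 and 3243 CPM. The gene apoa4b.1, an apolipoprotein A-IV, had 2188, 2633 and 2380 CPM, and apoeb, an apolipoprotein E, had 743.6, 643.5 and 637.8 CPM. The yolk precursors made in the liver of laying females, the vitellogenins, were at the other end: their 8 genes together held 0.000518% of the counts.

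Serpins and other protease inhibitors held 8.77 ± 0.224% (SD, n = 3), and fetub was 50.7% of that class. The antitrypsin-like pair serpina1 and serpina1l had 7580, 6439 and 7531 CPM, and 6951, 6520 and 6977 CPM. The order of these 2 genes was not the same in every library. They lie next to each other in the genome. Their sequences were not compared, and how reads that fit more than 1 gene were assigned is not given in the sources used here, so their split is uncertain. Antithrombin, serpinc1, the main brake on thrombin, had 1864, 1897 and 1788 CPM; it was named after its values were seen.

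Carriers and other plasma proteins held 6.33 ± 0.203% (SD, n = 3), of which tfa was 55.5%. The gene rbp4, which carries retinol out of the liver, had 8342, 9018 and 8717 CPM, and cp had 5356, 4684 and 4765 CPM. The heme scavenger hemopexin, hpxa, had 2168, 2328 and 1810 CPM. The vitamin D carrier gc had 1792, 1951 and 1855 CPM, and transthyretin, ttr, the thyroid hormone carrier, 159.3, 169.1 and 210.4 CPM. The iron hormone hepcidin, hamp, had 351.4, 444.8 and 460.4 CPM, and angiotensinogen, agt, the precursor of the pressor peptide, had 816.7, 875.4 and 876.9 CPM; both were named after their values were seen.

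Complement genes held 3.31 ± 0.362% (SD, n = 3) and coagulation and fibrinolysis genes 2.55 ± 0.118%. Complement was spread over several genes, with c3a.1 at 31.9% of the class. The gene c9, whose product forms the ring of the membrane attack pore, had 4768, 3956 and 4118 CPM, and cfb, the protease of the alternative pathway, 2507, 1931 and 1834 CPM. All 3 of these genes were highest in vehicle replicate 1, and the class share was 3.726% there against 3.079% and 3.120% in replicates 2 and 3. The fibrinogen chains fga, fgb and fgg, the substrate of the clot, averaged 5634, 5104 and 4329 CPM. Plasminogen, plg, the clot-dissolving protease precursor, had 3411, 3564 and 3584 CPM, and prothrombin, f2, had 2129, 2114 and 2025 CPM.

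Glycolysis, gluconeogenesis and glycogen genes held 5.37 ± 0.129% of the counts (SD, n = 3). The glycolytic gapdh had 8224, 7778 and 6779 CPM, and pklr, the liver and red cell pyruvate kinase, had 6064, 5400 and 5175 CPM. Of the enzymes that run only towards glucose release, fbp1b had 1915, 1812 and 1719 CPM and g6pc1a.2, a glucose-6-phosphatase, 664.2, 876.1 and 937.7 CPM. Glucokinase, gck, which traps glucose in the hepatocyte, was low by contrast at 3.334, 7.111 and 8.693 CPM. The main hepatic glucose transporter slc2a2 had 398.0, 444.9 and 452.0 CPM.

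Amino acid, urea and one-carbon genes held 5.33 ± 0.174% of the counts (SD, n = 3) and were spread more evenly, the leading gene bhmt being 18.1% of the class. The gene bhmt, which remethylates homocysteine with betaine, had 9517, 10284 and 9187 CPM. The glyoxylate-clearing transaminase agxtb had 3721, 3920 and 3125 CPM, and hpda, an enzyme of tyrosine breakdown, 2986, 3395 and 3530 CPM. Of the urea cycle genes, CPS1, the gene of its first enzyme, had no count in any of the 9 libraries, and argininosuccinate lyase, asl, was low at 3.226, 2.823 and 3.711 CPM. The arginase read in the liver was arg2, the mitochondrial form in mammals, with 655.8, 716.2 and 684.4 CPM, while arg1, the liver form in mammals, had no count in vehicle. The gene asl was named after its values were seen.

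The 13 mitochondrially encoded genes held 4.02 ± 0.185% of the counts (SD, n = 3) in these poly A libraries, and mt-co1 was 33.9% of them. Mitochondrial carriers held 2.62 ± 0.0326%, and 81.3% of that was ucp1. The next carrier was slc25a5, an exchanger of ADP and ATP, with 3157, 2945 and 2821 CPM. Nuclear genes of the respiratory chain held 0.650%. Cytosolic ribosomal proteins held 5.50 ± 0.311%, led by rps2 with 3079, 2988 and 2684 CPM, and translation factors 2.63 ± 0.0912%, led by eef1a1l1 with 10237, 9718 and 9093 CPM. The folding and translocation machinery of the endoplasmic reticulum, through which plasma proteins leave the cell, held 0.302%, with p4hb, a disulfide isomerase, at 429.8, 436.5 and 474.5 CPM.

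Among enzymes of drug and lipid handling, the 3 carboxylesterases held 1.06% of the counts and the 88 cytochromes P450 listed held 1.02%. The lead P450 genes were cyp2ad2 with 1604, 1779 and 1694 CPM and cyp3a65, of the main drug-metabolizing family in mammals, with 1170, 1328 and 1282 CPM. The gene cyp7a1, the rate-limiting enzyme of bile acid synthesis, had 582.5, 644.0 and 837.5 CPM. Bile export showed in ABCB11, the bile salt pump, with 696.3, 657.1 and 676.8 CPM, and in abcc2, the pump for conjugated bilirubin and drugs, with 931.6, 987.2 and 959.8 CPM. Conjugation enzymes held 0.510%, led by the glutathione transferase gstr with 839.7, 889.9 and 845.2 CPM. Catalase, cat, which breaks down hydrogen peroxide, had 2474, 2685 and 2533 CPM. Fibronectin fn1b, a secreted protein of plasma and matrix, had 9268, 9760 and 9114 CPM and was 87.1% of the extracellular matrix class.

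**Figure D2:**
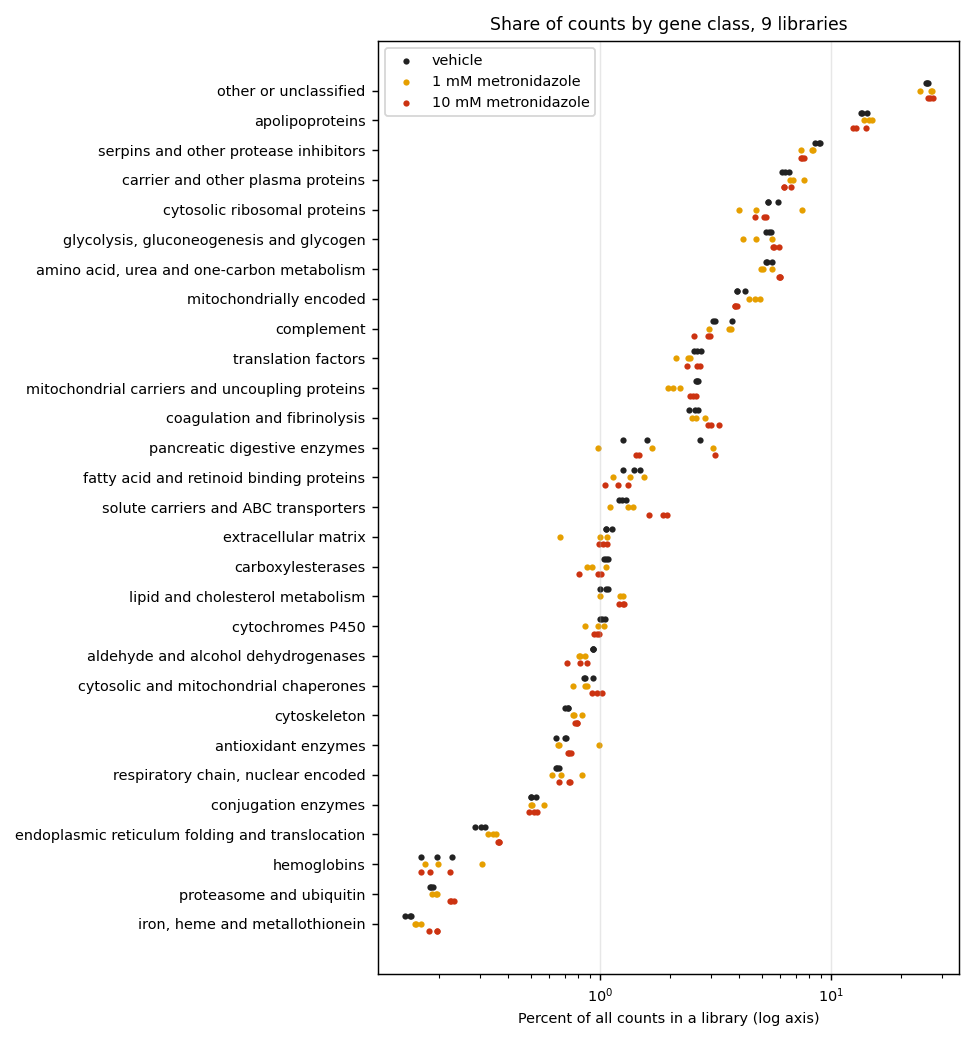
Share of all counts held by the protein classes, in percent on a logarithmic horizontal axis, with points for single libraries of each treatment. Vitellogenins and histones are not drawn. Apolipoproteins, at 13.79% in vehicle, lead the named classes, and pancreatic enzymes, from 1.251% to 2.689%, show the wide spread between vehicle replicates.

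Which paralog supplied a family's reads was examined in 84 families, of which 74 had at least 2 members at 1 CPM. In 71 of these the same member led in all 3 vehicle libraries, and in 69 the ranges of the first and second member did not overlap. The leading member held at least 50% of the family's reads in 61 families, at least 90% in 20 and at least 99% in 11, with a median of 77.1%. The lead over the second member was 10-fold or more in 24 families and under 1.5-fold in 12.

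Families with 1 member at 99% or above were counted only where at least 2 members reached 1 CPM. That rule required a detected second member in each of them. Fibronectin fn1b held 99.94% of its pair, while fn1a had 5.216, 5.255 and 7.219 CPM. The carrier ucp1 held 99.87%, with ucp2 at 25.44, 28.57 and 31.52 CPM. The A-I apolipoprotein apoa1b held 99.57%, with its paralog apoa1a at 273.0, 245.5 and 251.3 CPM. Likewise gapdh held 99.82%, the complement factor gene cfb 99.81%, ABCB11 99.82%, eef1a1l1 99.70%, pklr 99.64%, the enolase eno3 99.62% and fbp1b 99.17%. In mammals eno3 is the muscle form of enolase.

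In 7 families only 1 member passed 1 CPM. The apolipoprotein E gene apoeb averaged 675 CPM while apoea averaged 0.311 CPM. The carrier rbp4 was read without its copy rbp4l, which had no count in vehicle. The others of this kind were arg2, hpda, slc25a5, the LDL receptor ldlra and the transporter abcb4, at 63.1 CPM for its family. Within the fatty acid binding proteins fabp10a held 94.6% of the reads of 12 genes, followed by fabp3 with 486.5, 497.2 and 486.5 CPM.

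**Figure D3:**
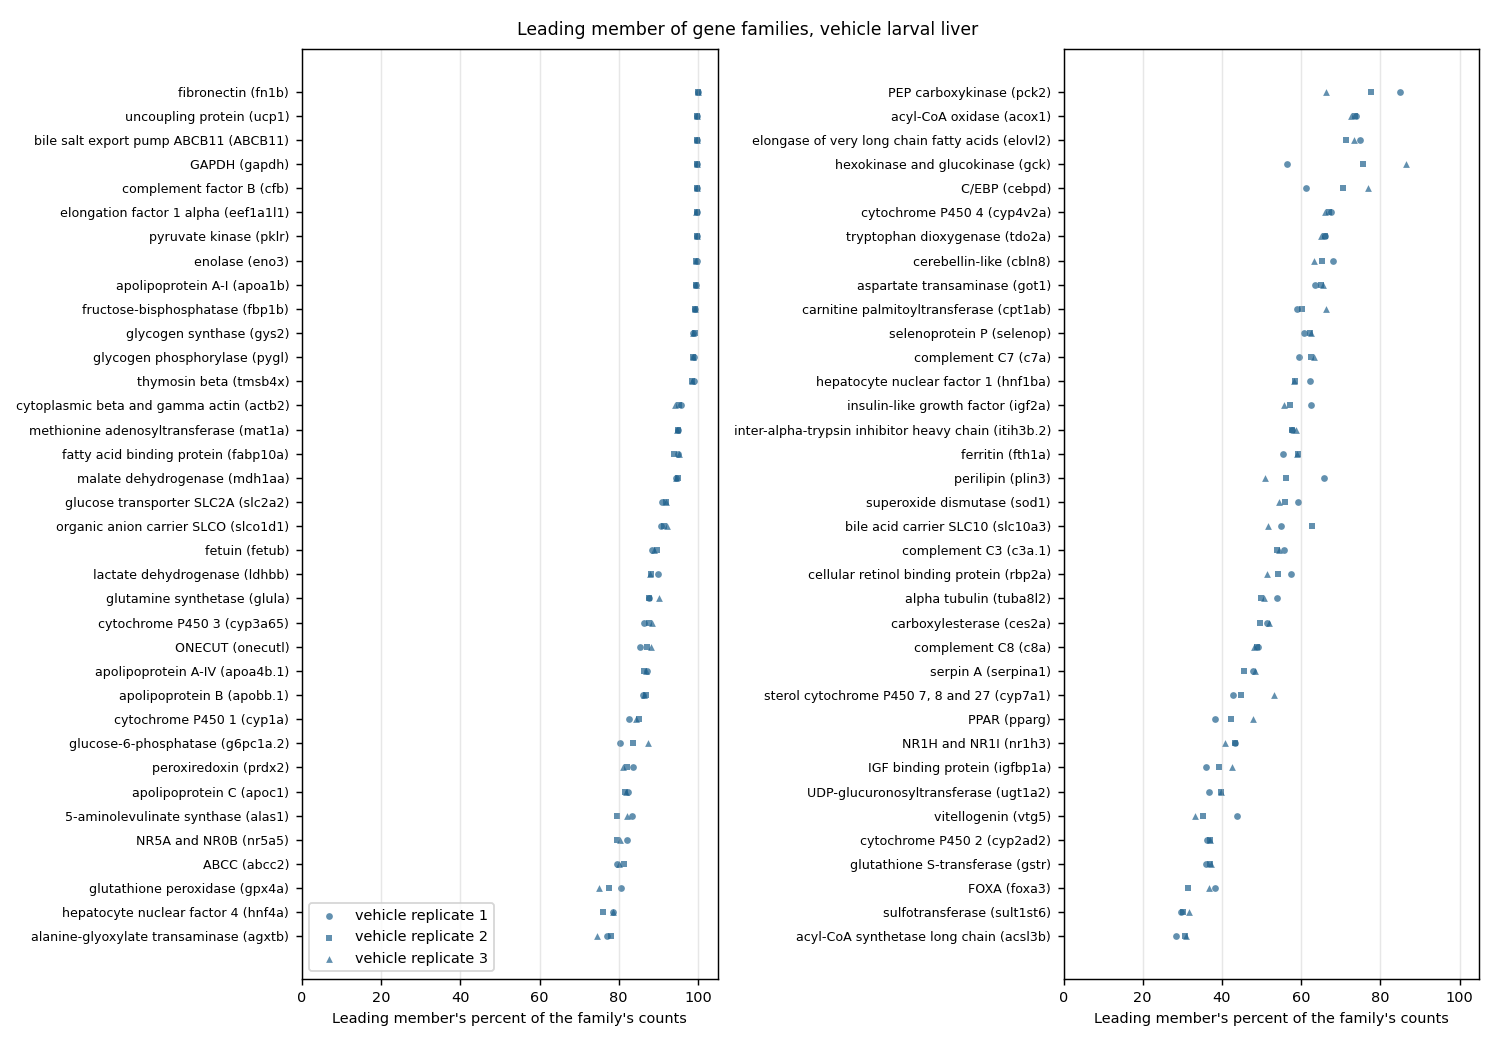
Percent of a family's reads held by its leading member in vehicle liver, with the families on the vertical axis and points for the single vehicle libraries. Families range from 1 dominant member, such as fibronectin with fn1b at 99.94%, to even splits such as carboxylesterase with ces2a at 50.9%.

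Other families were shared. The carboxylesterases, which lie next to each other, divided into ces2a with 5566, 5119 and 5470 CPM and ces3 with 4936, 4847 and 4750 CPM. Of the 8 complement C3 genes, c3a.1 held 54.6%, followed by c3a.3 with 2194, 1800 and 2060 CPM and c3b.1 with 2046, 2013 and 1844 CPM. The gene c8a, of the membrane attack pore, held 48.7% of the C8 reads. Of 41 cyp2 genes cyp2ad2 held 36.7%, and of 32 UDP-glucuronosyltransferases, which attach sugar to drugs and bilirubin, ugt1a2 held 38.8%. The splits within the C3, cyp2 and glucuronosyltransferase families, whose sequences were not compared either, carry the same uncertainty as that of serpina1 and serpina1l.

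Growth hormone signalling through the liver is usually read from insulin-like growth factors. The adult factor igf1 was low, at 2.312, 1.961 and 2.339 CPM. The factors that dominate before birth in mammals led, igf2a with 167.6, 204.5 and 239.8 CPM and igf2b with 98.19, 151.7 and 188.6 CPM. Of the binding proteins, igfbp1a led with 426.4, 502.0 and 577.7 CPM.

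Transcription factors that define the hepatocyte were read well below the 30 most abundant genes. The nuclear receptor hnf4a, a main regulator of hepatocyte genes, had 170.0, 153.8 and 153.6 CPM and held 77.7% of its family. The gene nr5a5, a relative of the mammalian bile acid regulator NR5A2, had 175.1, 197.9 and 213.9 CPM, and nr1h3, the sterol-sensing LXR, 134.5, 133.0 and 125.0 CPM. Of the C/EBP factors cebpd led with 221.8, 360.9 and 454.8 CPM, above cebpb with 89.43, 97.80 and 78.80 CPM, and cebpa, the factor most tied to the adult hepatocyte in mammals, had 22.37, 26.40 and 27.61 CPM. The homeobox factor prox1a had 75.87, 85.22 and 95.02 CPM. The pioneer factors foxa3, foxa1 and foxa2 were nearly level, with means of 44.3, 44.0 and 37.0 CPM, and none of them led in all 3 libraries.

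Several genes often taken as liver genes in mammals were close to absent. The bile acid uptake carrier SLC10A1 had 0.05377 and 0.1046 CPM in vehicle replicates 1 and 2 and no count in replicate 3, values at or near the floor of 0.0763 to 0.0807 CPM that 3 counts allow. The largest share of its family, 56.4%, belonged to slc10a3, while the organic anion carrier slco1d1 had 1366, 1586 and 1506 CPM. The desaturase scd had 0.4571, 0.05228 and 0.2542 CPM. The acute phase gene saa had 0.6991, 0.5228 and 1.144 CPM and haptoglobin, hp, 1.075, 1.438 and 2.339 CPM. The estrogen receptor gene esr1, through which vitellogenin genes are switched on, had 0.5915, 0.4183 and 0.6609 CPM, beside esr2b with 33.15, 37.28 and 30.45 CPM. The genes saa, hp, esr1 and esr2b were named after their values were seen.

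The labelled tissue was checked against 20 marker lists. Of the 22 hepatocyte symbols listed 21 matched a gene, 20 of these had at least 1 CPM, and the list held 21.19% of all counts. Its median level was 5290, 4684 and 4761 CPM in the 3 vehicle libraries. The exception was CPS1, which had no count. Marker genes can be shared between lists, so the lists are compared by their medians. In bulk tissue, fewer cells of a type and less RNA per cell cannot be told apart.

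Bile duct markers had medians of 37.21, 42.61 and 51.19 CPM, and all 17 were at 1 CPM or more. They were led by krt8 with 1925, 1737 and 1857 CPM and krt18a.1 with 809.9, 834.9 and 788.7 CPM, keratins of simple epithelia that hepatocytes can share, then by anxa4 with 550.0, 510.6 and 561.5 CPM and the galectin lgals2b with 270.1, 211.2 and 220.4 CPM. Endothelial markers had medians of 8.631, 8.627 and 8.566 CPM, with 16 of 18 at 1 CPM or more. The vascular receptor kdrl had 101.9, 99 and 95.5 CPM, the receptor tie1 57.11, 57.17 and 54.55 CPM, and the junction cadherin cdh5 47.62, 49.96 and 52.44 CPM. Stellate cell and fibroblast markers had medians of 8.563, 9.816 and 8.566 CPM, led by the collagen col1a1b with 33.21, 36.83 and 41.41 CPM and by colec11 with 26.03, 29.72 and 35.05 CPM. These 3 lists were steady between the vehicle libraries, within a factor of 1.5 of each other.

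Blood cell markers were lower, apart from red cells. Hemoglobins held 0.197% of the counts, led by the embryonic forms hbbe2 with 582.1, 813.4 and 728.3 CPM and hbae5 with 495.7, 713.9 and 569.5 CPM. Macrophage markers had medians of 1.721, 2.170 and 2.084 CPM, with 20 of 27 genes at 1 CPM or more, led by the iron exporter slc40a1 with 56.65, 54.14 and 50.13 CPM and including the scavenger receptor marco with 11.94, 13.78 and 15.96 CPM. Neutrophil markers had medians of 1.385, 3.111 and 1.246 CPM, and the granule enzyme mpx had 1.748, 4.340 and 1.576 CPM, highest in replicate 2. Of the lymphoid list 1 gene of 17 reached 1 CPM, and rag1, pax5 and gzm3 had no count.

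Digestive enzymes of the exocrine pancreas, an organ that lies beside the liver, were the main signal from outside it. They held 1.597%, 1.251% and 2.689% of the counts. Trypsin, prss1, had 1872, 1491 and 3305 CPM, prss59.2 had 1608, 1352 and 2859 CPM, and the chymotrypsin ctrb.1 had 1648, 1312 and 2788 CPM. All 3 were highest in replicate 3 and lowest in replicate 2, and 26 of the 29 pancreatic enzyme genes at 5 CPM or more were highest in replicate 3. The spread was no smaller elsewhere: the summed pancreas markers were 13507, 10527 and 22718 CPM in vehicle, 26019, 8186 and 14241 CPM at 1 mM, and 11914, 12283 and 26611 CPM at 10 mM. None of 30 pancreatic enzyme genes was called at either dose by edgeR's quasi-likelihood test or by DESeq2, and none had an unadjusted p under 0.05. By edgeR, at an adjusted p under 0.05, 17.2% of all tested genes were called at 10 mM and 0.984% at 1 mM.

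Endocrine pancreas showed as insulin, ins, with 1.775, 26.43 and 21.56 CPM and somatostatin, sst1.1, with 0.4302, 9.856 and 6.812 CPM, so replicate 1 was low in both. Markers of gut, muscle, heart, neurons, kidney, eye and pigment cells had medians of at most 0.305 CPM in every vehicle library, among them elavl3, cryaa, tnnt2a and tyr with no count. Of the gut list 10 of 29 genes still had a vehicle mean of 1 CPM or more, led by apoa4b.1. Of the kidney list 7 of 19 did, led by slc22a2. The numbers were 2 of 34 for skeletal muscle, 3 of 26 for neurons and glia, 1 of 10 for heart, 1 of 13 for pigment cells and 0 of 30 for eye. Epidermal markers had medians of 0.2958, 0.7973 and 1.970 CPM. Proliferation markers were low, with medians of 1.237, 1.255 and 1.322 CPM, and the replication genes mcm7 and pcna had 13.69, 15.89 and 13.85 CPM and 11.99, 15.11 and 16.29 CPM.

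**Figure D4:**
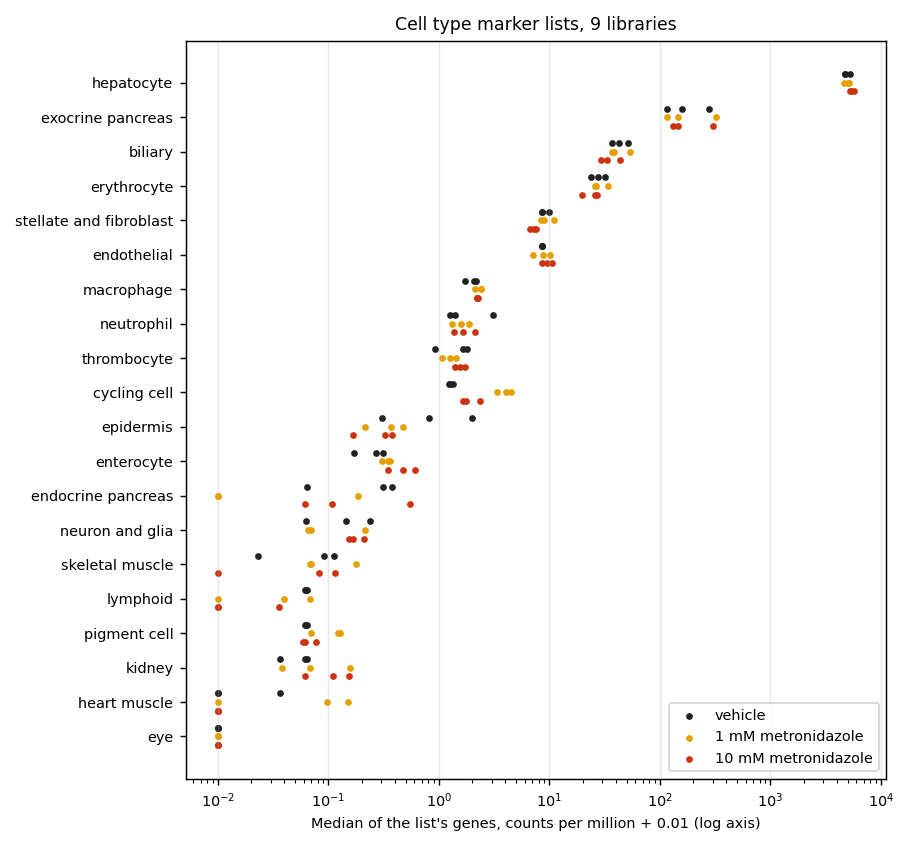
Median level of each cell type marker list in CPM, plotted after adding 0.01 on a logarithmic axis, with points for single libraries of each treatment. Hepatocyte markers lie at 4684 to 5290 CPM in vehicle, and exocrine pancreas is the next highest list at 115.2 to 279.3 CPM.

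Between vehicle replicates most genes were stable. Over 7945 genes at a mean of 5 CPM or more, the median SD of log2 CPM was 0.12, and 125 genes, 1.57%, differed by 2-fold or more between the lowest and the highest library. Of pancreatic enzymes 23 of 29 did so, and of hemoglobins 7 of 12. None of 22 coagulation, 31 complement, 80 ribosomal or 94 amino acid genes at this level did. That is too near the 1.57% of all genes to set these classes apart, and several other classes had none either. Of carriers and other plasma proteins 3 of 46 did, and of apolipoproteins 1 of 16. Among the steadiest was the sterol carrier scp2a with 1548, 1539 and 1552 CPM, and the translation factor eif3s10 with 582.3, 579.4 and 574.2 CPM; both were picked after their values were seen.

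The 12 most variable genes rested mostly on 1 library. The epidermal keratin krt5 had 0.1613, 13.18 and 42.22 CPM, and krtt1c19e, another epidermal keratin, which is not among the 12 and was picked after its values were seen, had 0.1075, 2.928 and 9.202 CPM. The gene ftr86 had 17.21, 0.5228 and 0.7117 CPM, and tmem176l.2 had 27.94, 1.203 and 1.678 CPM, both high in replicate 1 only. The genes slc22a6l, loc100334908, ins and sst1.1 were low in replicate 1 only. The transcription factor zbtb16a was low in replicate 3 only, with 9.71, 10.4 and 0.813 CPM. The lipase gene CEL, which is not in the listed class of pancreatic enzymes, had 124.8, 68.9 and 369.4 CPM. Of the 100 most variable genes 63 were highest in replicate 3, 21 in replicate 1 and 16 in replicate 2. Of these 100, 18 were in the class of pancreatic enzymes, without CEL.

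Further down the ranking, several genes picked after their values were seen were lowest in replicate 1 and highest in replicate 3. The transcription factor egr1, an early response gene switched on quickly by growth signals, had 7.31, 23.4 and 37.2 CPM and mycb, a myc transcription factor of growth, 46.6, 114.7 and 201.3 CPM. The kinase sik1 had 8.95, 14.5 and 35.6 CPM, gadd45ba 31.9, 84.5 and 120.6 CPM, and the mitochondrial carrier slc25a25a 9.52, 27.1 and 51.6 CPM. The pentraxin crp5 ran the other way with 389.4, 158.2 and 116.7 CPM. The summed pancreas markers, at 13507, 10527 and 22718 CPM, were also highest in replicate 3 but lowest in replicate 2, not in replicate 1. The part of pancreas in the values of these genes was not tested.

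**Figure D5:**
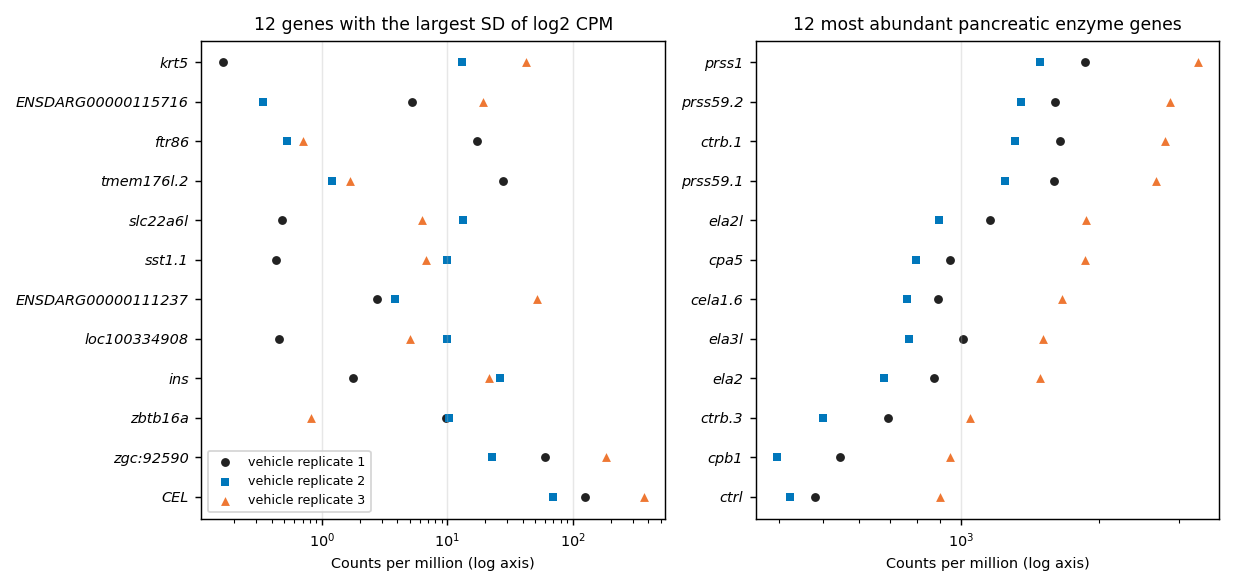
Level in CPM, on a logarithmic axis, of the 12 genes with the largest spread between the 3 vehicle libraries (left) and of the 12 most abundant pancreatic enzyme genes (right), 1 point per library. The keratin krt5 spans 0.1613 to 42.22 CPM, and several genes are low in replicate 1 alone.

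The drug groups show how far this baseline held. Gene by gene tests used edgeR's quasi-likelihood test with Benjamini-Hochberg adjustment over 16766 genes, and a call is an adjusted p under 0.05. At 10 mM 17.2% of all tested genes were called, 9.74% higher and 7.43% lower, and at 1 mM 0.984%, 0.889% higher and 0.0954% lower. Of the 100 most abundant vehicle genes 8 were called at 10 mM, 3 higher and 5 lower, with a median log2 change of -0.09 against -0.03 over all genes. The count was 18 without 1 mM replicate 3, which shares the estimate of spread, 4 without 10 mM replicate 3, and 12 with DESeq2. At 1 mM none of the 100 was called, with 5 at an unadjusted p under 0.05 and 2 called by DESeq2. The list was ranked on the vehicle libraries that also enter these comparisons. Of the 30 most abundant genes 27 were also among the first 30 at 10 mM and 28 at 1 mM, and of the first 100, 90 and 95 were shared with the first 100 at 10 mM and 1 mM.

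The 3 abundant genes that rose at 10 mM encode enzymes of amino acid breakdown. The transaminase agxtb had 7520, 6561 and 7483 CPM at 10 mM, against 3721, 3920 and 3125 CPM in vehicle (log2 1.02, SE 0.16, adjusted p = 0.000911). Tyrosine aminotransferase, tat, had 3485, 2702 and 3746 CPM at 10 mM, against 1863, 1863 and 1803 CPM in vehicle (log2 0.86, SE 0.16, adjusted p = 0.00275). In both genes the groups did not overlap, which also held for genes that were not called, such as fetub. Glutamate dehydrogenase, glud1b, had 3192, 2919 and 3083 CPM at 10 mM, against 2177, 2453 and 1967 CPM in vehicle, a smaller change (log2 0.50, adjusted p = 0.0269). Its call was lost in 5 of 12 alternatives, among them without vehicle replicate 1 or 3 and without 10 mM replicate 1 or 3, with an adjusted p of up to 0.134. The lead P450 gene cyp2ad2 fell to 634.2, 774.9 and 560.4 CPM at 10 mM, against 1604, 1779 and 1694 CPM in vehicle (log2 -1.34, SE 0.16, adjusted p = 0.000132). The vitamin D carrier gc, the folate enzymes aldh1l1 and ftcd, and a gene with a provisional symbol were also called lower, by log2 0.44 to 0.64 in size, and the calls of gc, aldh1l1 and ftcd were lost when any one vehicle library was left out.

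Split by vehicle level, 6.77% of the 133 genes at 1000 CPM or more were called at 10 mM, 24.4% of the 721 between 100 and 1000 CPM, 27.9% of the 4568 between 10 and 100 CPM, and 16.4% of those between 1 and 10 CPM. Ranked over all 9 libraries, so that vehicle did not set the bands alone, the shares were 12.8%, 26.0%, 29.0% and 15.7%. Among these bands, the most abundant had the lowest share by either ranking. Tested genes under 1 CPM are in none of them. Its 9 calls under the vehicle ranking became 20 without 1 mM replicate 3 and 5 without 10 mM replicate 3. No test of the difference between bands was made.

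As classes, plasma proteins held 34.75 ± 0.433% of the counts in vehicle, 35.49 ± 0.885% at 1 mM and 32.84 ± 0.797% at 10 mM (SD, n = 3 each). Over 31 classes, the 3 libraries of the 10 mM group did not overlap with the 3 of vehicle in 19, with 12 higher and 7 lower, and those of 1 mM in 9. With 3 against 3 libraries the two-sided exact permutation test cannot go below p = 0.1, the value of every class without overlap. No class passed after adjustment (smallest adjusted p = 0.163 at 10 mM and 0.344 at 1 mM). The share of all tested genes without overlap is not given here, so the counts of classes have no background beside them. Class shares sum to the whole, so that they do not move independently. Over all tested genes at 10 mM, 9.74% were called higher and 7.43% lower. Of single genes in these classes at 10 mM, 5 of 72 tested P450 genes rose and 23 fell. Of 307 solute carriers and ABC transporters 69 rose and 23 fell. Of endoplasmic reticulum folding genes 23 of 66 rose and 1 fell, and of proteasome and ubiquitin genes 32 of 107 rose and 3 fell. Without 10 mM replicate 3 the calls numbered 18 P450 genes, not 28, and 23 proteasome and ubiquitin genes, not 35. None of 82 ribosomal protein genes was called by edgeR or DESeq2, with 1 at an unadjusted p under 0.05, and none of the 13 mitochondrially encoded genes was called by either tool or had an unadjusted p under 0.05.

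Of the marker lists, hepatocyte markers had 1 of 20 higher and 2 lower at 10 mM, against 9.74% and 7.43% of all tested genes. They had 6 calls in all without 1 mM replicate 3 or 2 without 10 mM replicate 3. Proliferation markers had 14 of 26 higher at 1 mM, against 0.889% of all tested genes. Their medians were 1.237, 1.255 and 1.322 CPM in vehicle, 4.524, 3.329 and 4.047 CPM at 1 mM, and 1.768, 1.646 and 2.367 CPM at 10 mM. The count at 1 mM was 13 without 1 mM replicate 3 and 20 with DESeq2. It was not recounted with a vehicle library left out. Without vehicle replicate 1, 2 or 3, the calls at 1 mM over all genes numbered 22, 21 and 51, not 165. At 10 mM 1 of the 26 was called.

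The leading member of a family by mean was another gene at 10 mM than in vehicle in 9 of the 74 families, and at 1 mM in 4. Phosphoenolpyruvate carboxykinase, the first committed enzyme of gluconeogenesis, was the clearest: the mitochondrial form pck2 held 76.2% of the reads in vehicle, 74.0% at 1 mM and 15.1% at 10 mM. The cytosolic form pck1 had 6293, 4637 and 8505 CPM at 10 mM, against 162.2, 281.8 and 406.1 CPM in vehicle (log2 4.53, SE 0.53, adjusted p = 0.000107). The form pck2 had 1166, 1037 and 1106 CPM at 10 mM, against 911.7, 971.2 and 799.2 CPM in vehicle, and was not called (adjusted p = 0.133). In vehicle pck1 was itself uneven, lowest in replicate 1 and highest in replicate 3.

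The complement pore gene c7a held 61.7% of the C7 reads in vehicle, 24.7% at 1 mM and 3.37% at 10 mM. It led in each vehicle library, but narrowly: the means of c7a and c7b were 11.9 and 7.49 CPM, and their ranges overlapped. The paralog c7b had 10.43, 6.483 and 5.567 CPM in vehicle, 41.52, 58.56 and 37.86 CPM at 1 mM, and 407.2, 206.9 and 356.7 CPM at 10 mM. It rose at 10 mM (log2 5.44, SE 0.32, adjusted p = 2.31e-06) and at 1 mM (log2 2.60, SE 0.28, adjusted p = 0.0019), while c7a was called at neither dose. Glucokinase, gck, held 72.8% of the hexokinase and glucokinase reads in vehicle, 24.5% at 1 mM and 10.4% at 10 mM. This family was low in vehicle, with a mean of 8.46 CPM in all and 1.56 CPM for hk1. The share of gck ran from 56.4% to 86.4% between vehicle libraries. The gene gck fell to 0.4358, 0.2591 and 0.2000 CPM at 10 mM, against 3.334, 7.111 and 8.693 CPM in vehicle (log2 -4.34, SE 0.62, adjusted p = 0.000438), and hk1 was not called. At 1 mM gck was also called lower, but that call was lost in 7 of 12 alternatives, among them without any 1 vehicle library. In this family the change of leader thus lay in the gene that led in vehicle, and in the other 2 families in the gene that did not.

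Smaller shifts of the lead at 10 mM came in selenoprotein P, sulfotransferases, long chain acyl-CoA synthetases, glucuronosyltransferases, serpin A and vitellogenins. In serpin A and vitellogenins the leader already differed between vehicle libraries, so a change of leader there says little. The first 2 vitellogenins, vtg5 and vtg7, averaged only 2.00 and 1.91 CPM in vehicle. The sulfotransferase sult1st6 fell to 73.29, 89.63 and 76.88 CPM at 10 mM, against 128.0, 136.5 and 138.3 CPM in vehicle (log2 -0.73, adjusted p = 0.0017), and sult1st3 rose to 158.8, 172.1 and 146.8 CPM, against 96.20, 108.4 and 80.04 CPM in vehicle (log2 0.77, adjusted p = 0.0158). The call of sult1st3 was lost without vehicle replicate 1 or 3 and without 10 mM replicate 1 or 2, with an adjusted p of up to 0.0834. The synthetase acsl4a, which prefers arachidonic acid in mammals, rose to 33.03, 19.49 and 39.54 CPM at 10 mM, against 5.566, 3.817 and 3.559 CPM in vehicle (log2 2.84, adjusted p = 2.36e-05). In the glucuronosyltransferase and serpin A families the lead changed without a call in either of the 2 leading genes. The IGF pair kept its order while both members fell, igf2a by 1.04 and igf2b by 1.21 on the log2 scale at 10 mM (adjusted p = 0.00036 and 0.000865). Of the FOXA genes, foxa1 fell by 0.88 and foxa2 by 0.72 on the log2 scale (adjusted p = 0.00128 and 0.0121) and foxa3 was not called, so that foxa3 held 52.8% of their reads at 10 mM, against 35.4% in vehicle. The call of foxa2 was lost without vehicle replicate 2 and without 10 mM replicate 3, with an adjusted p of up to 0.0626. The C/EBP factor cebpa rose by 1.16 on the log2 scale at 10 mM (SE 0.20, adjusted p = 0.00139).

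Several abundant genes lie side by side in the genome. In the gene order of RefSeq assembly GRCz12tu, 86 of the 100 most abundant genes were found, and they formed 8 pairs of direct neighbours. These were fetub and ahsg1, apoa2 and apoc2, itih3b.2 and itih3b.1, serpina1 and serpina1l, ces2a and ces3, c3a.3 and c3a.2, c3b.1 and c3b.2, and prss59.2 and prss59.1. Of these pairs 7 join members of 1 gene family, and apoa2 with apoc2 joins different apolipoproteins. Blocks of 100 genes further down the ranking, from rank 101, 201, 501, 1001 and 2001, held 1, 0, 3, 0 and 0 such pairs.

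Of the counts in vehicle, 90.76% fell on genes with a symbol in the deposited table, 8.29% on genes named from Ensembl's list, and 0.944% on genes with no symbol. The most abundant genes with a provisional or no symbol were zgc:123103 with 4447, 3664 and 3441 CPM, si:ch1073-464p5.5 with 3815, 4021 and 3386 CPM and ENSDARG00000077872 with 2517, 2337 and 2427 CPM. No role is given here for these genes. Genes in none of the listed classes held 25.85% of the counts, and the most abundant among them was C20H6orf58 with a mean of 5746 CPM.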

How the data were processed

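Poly A RNA of 9 zebrafish larval liver libraries was measured. Per the submitters' processing notes, reads were aligned with HISAT2 to GRCz11 and counted with featureCounts by the authors. Not given in the sources used here: versions, strand and how multiply mapped reads were counted. Deposited values are raw gene counts. Of counts from 1 to 20, 75.2 to 82.9% were even, against 48.7 to 51.0% above 1000, so each mate of a pair was mostly counted. CPM was computed on total counts. Comparisons used edgeR 4.0.16 (R 4.3.3): filterByExpr (minimum count 10, minimum total 15), TMM, all 9 libraries with 1 mean per group, Benjamini-Hochberg threshold 0.05. The edgeR test was also run on simulated data, whose outcome is not given here, so that run adds no support to the calls. Alternatives included DESeq2 1.42.0. Tables and figures used Python 3.11.15, pandas 2.3.3, scipy 1.17.1 and matplotlib 3.10.9. The labels do not say that replicates are separate animals, so p-values measure only the spread between these libraries.

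Replicate numbers were not used as pairs. Deviations of same-numbered libraries correlated at -0.089 to 0.061 between vehicle and 1 mM, and those of different-numbered libraries at -0.057 to 0.088. Between vehicle and 10 mM the same-numbered values were 0.039 to 0.102 and the different-numbered ones -0.088 to -0.0093. Same-numbered libraries were thus slightly more alike there, and the count with the replicate number as a block is given below. Families were compared on counts, not per length, since no lengths were used here. The members and all gene lists were chosen with earlier results of these data known. Named genes are the 30 most abundant, the first 3 of each class, the first 2 of each family, the first 4 of each marker list and the 12 most variable at 5 CPM or more, not all of which are reported here. The 3-count floor covers counting error only. Sequences and gene positions on GRCz11 were not used here.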

Additional observations from a re-analysis of the deposited data

How the results depend on the processing

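The count of 2878 genes called at 10 mM ranged from 1854 to 2512 when 1 library of the 2 groups was left out. It moved by over 1.5 times without vehicle replicate 2 (1892), vehicle replicate 3 (1854) or 10 mM replicate 1 (1915). No other alternative moved it by 1.5 times. The count of 165 genes at 1 mM was less stable, at 487 with no count filter, 470 with DESeq2, 109 with the replicate number as a block, 103 with only the 6 libraries of the 2 groups, and 21 to 202 when 1 library was left out. It was lowest without vehicle replicate 2 (21) and without vehicle replicate 1 (22), 51 without vehicle replicate 3, and 54 without 1 mM replicate 2. The replicate block gave 2455 at 10 mM. Leaving out 1 mM replicate 3 and 10 mM replicate 3 where they were not compared was chosen after seeing the data and gave 4066 genes at 10 mM and 136 at 1 mM. The 12168 genes detected became 7442 at a minimum of 5 CPM. Without mitochondrially encoded genes, the 10 most abundant genes held 28.26% and plasma proteins 36.21% of the counts. The 71 families with a constant leader became 66 at 5 CPM and 72 with any 1 vehicle library left out. With fewer libraries that must share a leader the count can hardly fall, so the 72 say little about stability. At 5 CPM fewer families have 2 members to compare: the second member of complement factor B, cfbl, averaged 3.93 CPM. Shares per transcript length were not run, because no lengths were used here. Among named genes, calls were lost most often for ftcd and selenop, in 9 of 12 alternatives each, and for gc and cyp7a1, in 8 of 12; no direction was reversed. Limits are the 3 libraries per group, the unknown origin of replicates, and reads that related gene copies may share.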
